A study of Homo sapiens with 2 samples.

Results

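The genes of the mitochondrial respiratory chain and ATP synthase were compared between 2 RNA-seq libraries of Huh7 cells, 1 from cells carrying a control shRNA and 1 from cells carrying an shRNA against USP22. Members were chosen by symbol: every gene whose name begins with NDUF, COX and a digit, UQCR, ATP5 or MT-, together with SDHA, SDHB, SDHC and SDHD. This gave 111 of the 11976 genes in the deposited tables, 98 encoded in the nucleus and 13 on mitochondrial DNA. The nuclear genes comprised 76 structural subunits (37 of complex I, 4 of complex II, 8 of complex III, 12 of complex IV and 15 of complex V), 17 assembly factors and 5 other genes, which are readthrough, copy or regulatory genes. Huh7 is an established human hepatocellular carcinoma line, and USP22 is the ubiquitin protease of the SAGA chromatin complex. Both libraries come from the same line and differ, per the labels, in the shRNA, whose sequence and time of exposure the sources used here do not give. With 1 library per group there is no replicate error, so no test was possible, and "higher" and "lower" describe these 2 libraries.

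The respiratory chain passes electrons from NADH and succinate to oxygen through complexes I to IV, and complex V uses the resulting proton gradient to make ATP. Most subunits are made from nuclear genes and imported, while a small set of membrane core subunits of complexes I, III, IV and V is transcribed and translated inside the mitochondrion, so each of these complexes combines products of both genomes. In liver this system supplies ATP for biosynthesis and accepts electrons from fatty acid oxidation.

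Values are read as FPKM, fragments scaled for transcript length and library size, with a total of 244301 for the control library and 218955 for the other. Read totals are not known, so no counting interval can be given. USP22 stood at 58.1 FPKM with the control shRNA and 7.67 FPKM with the USP22 shRNA. All 12 hepatocyte markers examined were listed in both libraries, at a summed 2454 and 1689 FPKM. They did not move together. In the USP22 shRNA library 9 were lower, such as APOA1 at 781 and 381 FPKM. AFP, at 270 and 347 FPKM, APOB, at 51.4 and 100 FPKM, and FGB, at 110 and 208 FPKM, were higher. Of 6 blood cell markers, CD14 and CD68 were listed, summing to 5.28 FPKM with the control shRNA and 1.11 FPKM with the USP22 shRNA. Of 8 endothelial and stromal markers 4 were listed, at 14.3 and 23.9 FPKM in sum, with ACTA2 at 0 in both. LUM stood at 1.37 and 8.95 FPKM, COL1A2 at 11.2 and 13.7 FPKM and PDGFRB at 1.68 and 1.31 FPKM. In bulk RNA, fewer cells of a type and less RNA per cell cannot be told apart.

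Nuclear chain genes stayed mostly within 2-fold of the control and lay more often below it than above. The log2 ratio was taken as log2 of (USP22 shRNA + 1) over (control + 1), and genes were kept where the mean of both libraries reached 1 FPKM, which left 95 of the 98 nuclear members. The 3 left out were ATP5S, ATP5EP2 and NDUFC2-KCTD14. Of the 95, 1 was at least 2-fold higher in the USP22 shRNA library, against 24.1% of the 10195 genes kept, and 10 were at least 2-fold lower, against 12.2% of all genes. The share at least 2-fold lower was thus near that of all genes, while the share at least 2-fold higher was smaller. The median log2 ratio was -0.35 for nuclear members and 0.10 for all genes, and 68 of the 95 (71.6%) were below 0, against 46.5% of all genes. With values rescaled without mitochondrial genes, 2 members were at least 2-fold higher (27.3% of all genes) and 3 lower (10.1%), and the median of -0.21 stood against 0.22 for all genes. Part of the contrast goes with abundance. Among genes whose mean reached 20 FPKM, 49 of 60 nuclear members (81.7%) were below 0, against 62.5% of 1981 genes. Of these 60, 1 was at least 2-fold higher, against 11.8%, and 4 lower, against 15.3%.

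Other settings moved the counts, which are given here with the share of all genes under the same setting. A pseudocount of 0.1 gave 3 nuclear members higher (29.6% of all genes) and 12 lower (15.5%), and a pseudocount of 5 gave 0 higher (8.71%) and 2 lower (5.24%). Centring on the median gave 0 higher (21.5%) and 15 lower (14.5%), and TMM scaling gave 0 higher (20.2%) and 20 lower (15.6%). A rule of 1.5-fold gave 8 higher (35.6%) and 36 lower (24.2%). Among the 41 kept nuclear members that share no exon bases with another gene, 0 were higher (24.2%) and 5 lower (12.2%). With GC and length trends removed, 0 were higher (8.2%) and 18 lower (8.74%), and with the median GC over coding transcripts in place of the longest, 0 were higher (8.97%) and 18 lower (8.92%). The share of nuclear members at least 2-fold higher was below that of all genes in each of these settings, while the share lower was above it in some and below it in others.

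**Figure D1:**
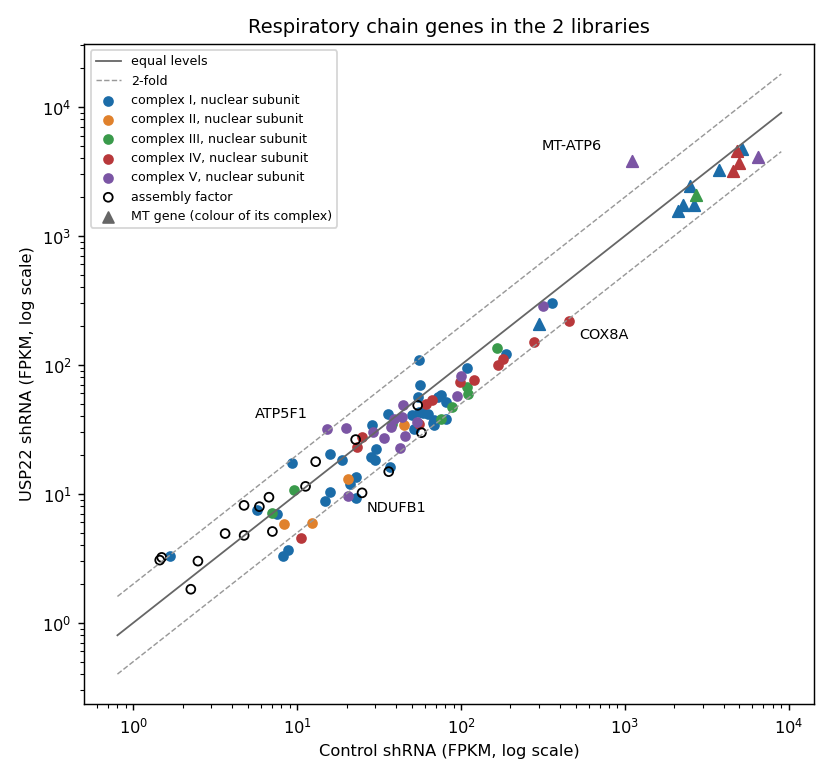
Level of each kept chain gene in the control (x axis) and the USP22 shRNA library (y axis), both in FPKM on log scales; readthrough and copy genes are not drawn. Circles are nuclear genes coloured by complex, open circles assembly factors and triangles mitochondrially encoded genes; MT-ATP6 lies far above the line of equal levels, at 1108 and 3817 FPKM.

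Structural subunits and assembly factors differed in their medians. The 76 structural subunits had a median log2 ratio of -0.43, with 60 below 0 (78.9%, against 46.5% of all genes). The 17 assembly factors, which help build the complexes without being part of them, had a median of 0.20, with 6 below 0. Subunits were also the more abundant class, at a median of 44.3 FPKM in the control, against 6.73 FPKM for assembly factors. Median transcript GC content was 47.8% for subunits and 45.2% for assembly factors, a property that moved with the ratio across all genes, as described further on.

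Complex I, the NADH dehydrogenase, held 37 nuclear subunits, at a median of -0.45. Of these, 5 were at least 2-fold lower, a share near the 12.2% of all genes. None was at least 2-fold higher, against 24.1% of all genes, and 28 were below 0 (75.7%), against 46.5%. The lowest was NDUFB1 (ENSG00000183648.9_2), an accessory subunit of the distal membrane arm, at 22.7 FPKM with the control shRNA and 9.36 FPKM with the USP22 shRNA, at -1.20 on the log2 scale. NDUFA11, an accessory subunit of the proximal membrane arm, stood at 36.9 and 16.3 FPKM. NDUFV3, an accessory subunit of the NADH-oxidising N module, was at 8.16 and 3.32 FPKM. These were followed by NDUFB11, at 80.6 FPKM with the control shRNA and 38.04 FPKM with the USP22 shRNA, and NDUFS7, an iron-sulfur core subunit of the ubiquinone-reducing Q module, at 8.79 and 3.70 FPKM. At the other end, the iron-sulfur subunit NDUFV2 was at 55.7 FPKM with the control shRNA and 109 FPKM with the USP22 shRNA, and NDUFS1, which carries several iron-sulfur clusters, at 9.28 and 17.3 FPKM. Their log2 ratios, 0.95 and 0.83, lay inside 2-fold. NDUFA11, NDUFB11, NDUFS7, NDUFAF3 and COX8A share annotated exon bases with other genes, so their values are less certain than those of NDUFB1, NDUFV3, NDUFAF8, COX7A2L and ATP5D, which share none.

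Within the same N module, neighbouring subunits had uncorrected ratios of opposite sign. NDUFV1, the flavin subunit that binds NADH, was at 67.5 FPKM with the control shRNA and 35.6 FPKM with the USP22 shRNA (log2 ratio -0.90), while NDUFV2, its direct partner, had the highest ratio of the complex I subunits. Their transcripts have GC contents of 59.4% and 41.3%, and with the GC trend removed both were below 0, at -0.33 and -0.14. The sign of NDUFV2 depended on the correction. With GC and length trends removed NDUFV1 was at -0.30 and NDUFV2 at 0.01. With the median GC over coding transcripts they were at -0.32 and 0.18. The 7 core nuclear subunits spanned -1.06 to 0.95 around a median of -0.41. By module, the median log2 ratio was -0.25 over 10 N module subunits, -0.49 over 6 of the Q module, -0.36 over 9 of the proximal and -0.51 over 11 of the distal membrane arm. The range within each module was wider than the differences between these medians. The most abundant nuclear subunit of complex I in both libraries was NDUFS5, at 360 and 302 FPKM.

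The 8 complex I assembly factors divided by level of ratio. NDUFAF3, at 36.2 FPKM with the control shRNA and 14.9 FPKM with the USP22 shRNA, and NDUFAF8, at 24.9 and 10.2 FPKM, had the lowest log2 ratios of all nuclear members, -1.23 and -1.21. NDUFAF3 joins early matrix-arm intermediates. NDUFAF6, at 1.49 and 3.21 FPKM, and NDUFAF7, a mitochondrial methyltransferase, at 1.45 and 3.06 FPKM, had the highest of these 8 assembly factors, 0.76 and 0.73. The transcripts of NDUFAF3 and NDUFAF8 have a GC content of 64.0% and 60.2%, and those of NDUFAF6 and NDUFAF7 of 45.2% and 42.6%.

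All 4 subunits of complex II, succinate dehydrogenase, were lower in the USP22 shRNA library by less than 2-fold on the scale used. Of all genes, 46.5% were below 0. SDHA, the flavoprotein, stood at 20.4 FPKM with the control shRNA and 13.1 FPKM with the USP22 shRNA. SDHB, the iron-sulfur protein, was at 44.6 and 34.3 FPKM. The membrane anchors SDHC, at 12.2 and 5.92 FPKM, and SDHD, at 8.35 and 5.84 FPKM, had log2 ratios of -0.94 and -0.45. SDHC is 2.07-fold lower as a plain ratio and inside the size rule because of the pseudocount of 1.

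Complex III, the cytochrome bc1 complex, had 8 nuclear subunits among the members, with a median of -0.48. Of these, 6 were below 0, against 46.5% of all genes. None was past 2-fold, against 24.1% of all genes higher and 12.2% lower. UQCR11, at 75.04 FPKM with the control shRNA and 37.9 FPKM with the USP22 shRNA, and UQCRQ, at 88.1 and 46.7 FPKM, both small subunits, had the lowest ratios. The core protein UQCRC2, at 9.61 and 10.7 FPKM, and the small subunit UQCRB, at 6.98 and 7.13 FPKM, had the highest. The Rieske iron-sulfur protein UQCRFS1 was at 38.1 and 34.6 FPKM.

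In complex IV, cytochrome c oxidase, 2 of 12 nuclear subunits were at least 2-fold lower, against 12.2% of all genes. Of the 12, 11 were below 0, against 46.5% of all genes, at a median log2 ratio of -0.65. This was the lowest uncorrected median of the nuclear subunits of the 5 complexes, while with the GC trend removed complex II was lower, at -1.04 against -0.91. COX8A, the ubiquitous form of subunit 8 and the nuclear member with the highest level in the control, stood at 455 FPKM with the control shRNA and 218 FPKM with the USP22 shRNA. COX7A2L, related to subunit 7A and known for joining complexes III and IV into supercomplexes, was at 10.6 and 4.54 FPKM, while COX7A2 itself was at 98.6 and 74.2 FPKM. The highest ratios belonged to COX6C, at 24.9 and 27.5 FPKM, and COX7B, at 23.2 and 22.9 FPKM. The other isoform families were represented by their liver or ubiquitous forms, with COX4I1 at 55.4 and 34.7 FPKM, COX6A1 at 180 and 111 FPKM and COX6B1 at 277 and 151 FPKM. NDUFA4, now assigned to complex IV despite its symbol, was at 66.2 FPKM with the control shRNA and 53.7 FPKM with the USP22 shRNA.

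The 9 assembly factors of complex IV had a median of 0.20, with 7 of them at or above 0. COX20, a chaperone of MT-CO2, was at 6.73 FPKM with the control shRNA and 9.41 FPKM with the USP22 shRNA. COX16, which acts in the assembly of MT-CO2, was at 13.0 and 17.8 FPKM. COX14, which acts on newly made MT-CO1, had the lowest ratio, at 57.3 and 29.8 FPKM, followed by COX19, at 7.06 and 5.10 FPKM. COX10 and COX15, enzymes of heme A synthesis, lay close to equal, at 4.74 and 4.76 FPKM and at 11.2 and 11.4 FPKM.

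Complex V, ATP synthase, held the nuclear member at least 2-fold higher and 1 of the 10 lower. Of its 15 nuclear subunits this is 1 higher, against 24.1% of all genes, and 1 lower, against 12.2%. ATP5F1 (ENSG00000116459.10_2, now ATP5PB), subunit b of the peripheral stalk, was at 15.1 FPKM with the control shRNA and 32.0 FPKM with the USP22 shRNA, at 1.03 on the log2 scale. It lay at the edge of the size rule and was at 0.93 with ratios centred on their median, 0.86 with TMM scaling, 0.88 with a pseudocount of 5 and 0.15 with the GC trend removed. ATP5F1 shares annotated exon bases with WDR77 on the opposite strand, and the sources used here do not say whether reads were counted by strand. Next to it, the peripheral stalk subunit ATP5O (OSCP) was at 19.8 and 32.5 FPKM, or 0.69 on the log2 scale. With the GC trend removed ATP5O was at 0.71, the highest corrected value of the nuclear members. ATP5O shares annotated exon bases with AP000311.1 on the same strand. ATP5H and ATP5J, the other members of the stalk, were at 39.0 and 38.2 FPKM and at 43.7 and 39.2 FPKM. The stalk's 4 genes thus spanned log2 ratios of -0.15 to 1.03, and their levels were closer together in the USP22 shRNA library, at 32.0 to 39.2 FPKM, than in the control, at 15.1 to 43.7 FPKM. With the GC trend removed the 4 genes spanned -0.62 to 0.71, around a median of 0.15.

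The lower member of complex V was ATP5D, the delta subunit of the F1 central stalk, at 20.4 FPKM with the control shRNA and 9.62 FPKM with the USP22 shRNA. The catalytic subunit ATP5B was at 316 and 287 FPKM and its partner ATP5A1 at 37.4 and 32.7 FPKM. The 3 genes that encode the membrane c-ring subunit, ATP5G1, ATP5G2 and ATP5G3, give the same mature protein behind different import sequences. ATP5G1 was at 42.5 and 22.8 FPKM, ATP5G2 at 33.7 and 27.2 FPKM and ATP5G3 at 45.6 and 28.0 FPKM, so all 3 were lower and none by 2-fold on the scale used. All 6 genes of the membrane part that match the symbol rule were below 0, at a median of -0.62. The F1 part, central stalk included, had a median of -0.14 over 5 genes. With the GC trend removed this order turned over, at -0.38 for the membrane part, with ATP5G2 (0.23) and ATP5I (0.18) above 0, and -0.67 for F1. These groups leave out the ATP synthase genes outside the symbol rule. Of those, USMG5 was at 0.19 uncorrected, C14orf2 at -0.18 and the inhibitor ATPIF1 at -0.76.

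**Figure D2:**
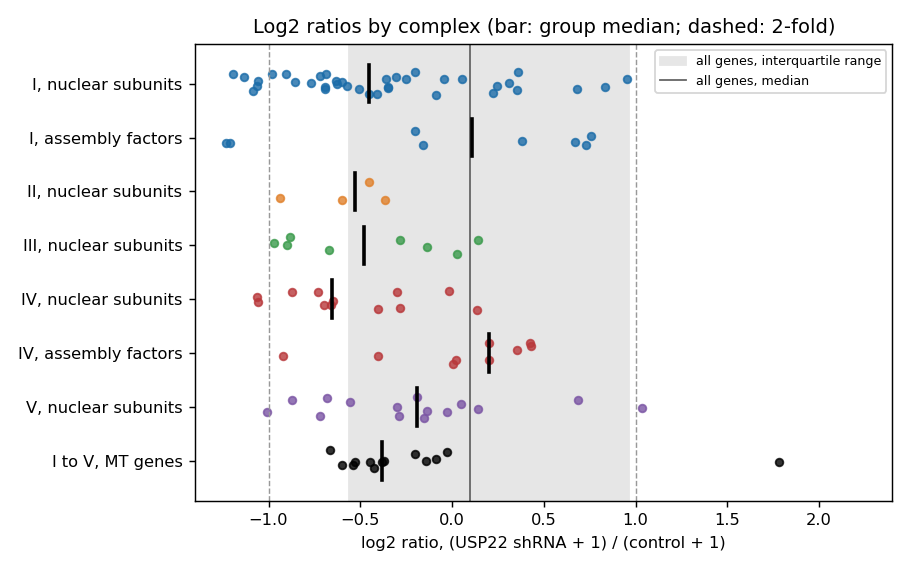
Log2 ratio (x axis) of each kept chain gene, grouped by complex and class (rows); black bars are group medians, the grey band is the interquartile range of all genes and dashed lines mark 2-fold. Nuclear subunits of every complex have medians from -0.65 to -0.19, and both groups of assembly factors have medians above 0.

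Mitochondrially encoded genes were lower by less than 2-fold in 12 of 13 cases, and MT-ATP6 was the exception. The 12 had log2 ratios from -0.67 to -0.03, with a median of -0.40. Of all genes, 46.5% were below 0. Among the 318 genes whose mean reached 100 FPKM, which include these 13, 76.7% were below 0, at a median of -0.43. The mitochondrial median thus lay near that of other abundant genes before any correction. In complex I, the core membrane subunit MT-ND1 was at 2644 FPKM with the control shRNA and 1742 FPKM with the USP22 shRNA, and MT-ND2 at 2253 and 1730.4 FPKM. MT-ND3 was at 2119 and 1552 FPKM, MT-ND4L at 3754 and 3266 FPKM and MT-ND4 at 5179 and 4699.6 FPKM. MT-ND5, at 2481 and 2430.4 FPKM, lay closest to equal, and MT-ND6, the one protein gene on the light strand, was the least abundant at 301 and 207 FPKM. Cytochrome b of complex III, MT-CYB, was at 2712 and 2093 FPKM. The catalytic subunits of complex IV, MT-CO1, MT-CO2 and MT-CO3, were at 4861 and 4579.9 FPKM, 4962 and 3688 FPKM, and 4566 and 3166 FPKM.

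MT-ATP8 and MT-ATP6, the membrane subunits of ATP synthase made from mitochondrial DNA, went in opposite directions. MT-ATP8 was at 6473 FPKM with the control shRNA and 4081 FPKM with the USP22 shRNA, while MT-ATP6 was at 1108 and 3817 FPKM, 3.45-fold higher, a log2 ratio of 1.78. In the control MT-ATP6 stood below both of its neighbours on the genome, MT-ATP8 and MT-CO3, and was 12th from the highest of the 13 genes. In the USP22 shRNA library it lay between them and was 4th. The 2 genes are translated from 1 bicistronic transcript and their reading frames overlap. The overlap is shown because reads from it belong to both genes: MT-ATP8 spans chrM:8366-8572 and MT-ATP6 begins at 8527 (GRCh38, plus strand), and capitals mark the 46 shared bases, given here from GENCODE 29 transcripts for all of MT-ATP8 and for the first 120 bases of MT-ATP6.
MT-ATP8: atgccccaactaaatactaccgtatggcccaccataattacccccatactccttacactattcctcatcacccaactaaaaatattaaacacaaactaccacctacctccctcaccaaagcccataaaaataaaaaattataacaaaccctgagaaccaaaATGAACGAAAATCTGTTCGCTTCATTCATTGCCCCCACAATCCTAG
MT-ATP6: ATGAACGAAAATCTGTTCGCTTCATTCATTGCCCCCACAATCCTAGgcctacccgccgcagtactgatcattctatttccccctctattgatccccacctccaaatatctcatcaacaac

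The ratio of MT-ATP8 to MT-ATP6 was 5.84 with the control shRNA and 1.07 with the USP22 shRNA. The other bicistronic pair, MT-ND4L and MT-ND4, kept nearly the same ratio, 0.725 and 0.695. Weighted by length, MT-ATP8 and MT-ATP6 together were at 2358 FPKM with the control shRNA and 3878 FPKM with the USP22 shRNA, and with MT-CO3, whose first base is the last of MT-ATP6, at 3393 and 3544 FPKM, a ratio of 1.04. The other 10 mitochondrial genes, weighted the same way, had a ratio of 0.860. MT-ATP6 also has a near-identical nuclear copy, MTATP6P1 on chromosome 1, with 671 of 681 bases the same, and the corresponding copies of MT-ATP8 and MT-CO3 match over 202 of 207 and 537 of 547 bases. These copies are not analysed here, and the sources used here do not say how reads were divided among overlapping genes and copies. The values of MT-ATP6, MT-ATP8 and MT-CO3 are therefore uncertain, and the part of shared reads in the MT-ATP6 difference was not tested.

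**Figure D3:**
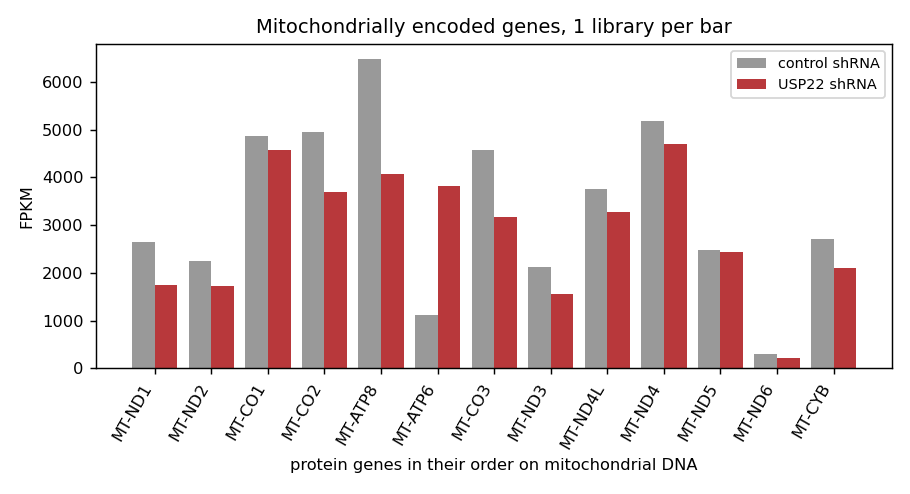
FPKM (y axis) of the 13 mitochondrially encoded protein genes in their order on mitochondrial DNA (x axis), 1 bar per library. MT-ATP6 is the gene whose USP22 shRNA bar exceeds its control bar, at 3817 against 1108 FPKM.

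Transcript GC content moved with the ratio, among chain genes as among all genes. Spearman's rho of the log2 ratio with GC content was -0.64 over the 95 nuclear members and -0.70 over 10134 genes, which share the same 2 libraries. Below 45% GC, 56.8% of 3515 genes were at least 2-fold higher in the USP22 shRNA library, but 1 of 32 nuclear chain genes was, and 13 of the 32 were below 0 against 9.3% of all genes in that class. Between 45% and 55% GC, 34 of 42 chain genes were below 0, against 50.6% of all genes, with 2 at least 2-fold lower against 9.8%. At 55% GC and over, all 21 chain genes were below 0, against 82.3% of all genes, and 7 were at least 2-fold lower against 27%. The low-GC chain genes thus lay furthest from other genes of their class, and the high-GC ones were close to theirs.

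With the GC trend over all genes removed, nuclear members had a median of -0.52, with 83 of 95 below 0, none at least 2-fold higher against 8.45% of all genes, and 19 at least 2-fold lower against 8.92%. Of the 10 lower members NDUFB1, NDUFV3 and COX7A2L were among these 19, and the other 7 (NDUFA11, NDUFB11, NDUFS7, NDUFAF3, NDUFAF8, COX8A and ATP5D) were not. The lowest corrected values of nuclear members were those of COX7A2L (-1.89), SDHC (-1.88), ATP5G3 (-1.81), SDHD (-1.58) and COX7C (-1.55), chosen after their values were seen. With the median GC over coding transcripts in place of that of the longest, COX7A2L was at -2.04 and COX7C at -1.45, but ATP5G3 was at -1.07, SDHC at -1.03 and SDHD at -0.78, and other members such as NDUFB1 (-1.55) and NDUFA4 (-1.55) lay below these 3. Assembly factors and structural subunits had corrected medians of -0.54 and -0.51. The mitochondrially encoded genes had a corrected median of -0.86, and MT-ATP6 remained above 0 at 1.06. Removal of the GC trend re-centres the ratio of all genes at each GC content, and the chain's distance from that centre is what these values describe. Abundance moved with the ratio as well: among the 1981 genes whose mean reached 20 FPKM the median log2 ratio was -0.26, against -0.39 for the 60 nuclear members at that level. Among the 318 genes whose mean reached 100 FPKM it was -0.43, against -0.63 for 9 nuclear members. With GC and length trends removed these medians were -0.11 for the 318 genes and 0.005 for the 9 members.

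**Figure D4:**
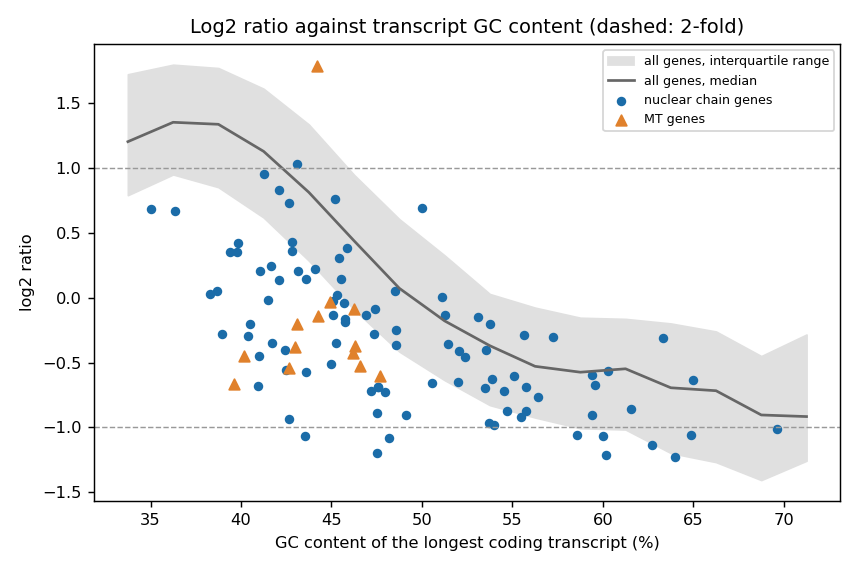
Log2 ratio (y axis) against GC content of the longest coding transcript (x axis, %). The line and band are the median and interquartile range of all genes in bins of GC content, circles are nuclear chain genes, triangles mitochondrially encoded genes, and dashed lines mark 2-fold; nuclear chain genes under 45% GC lie mostly below the band.

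Chain genes whose symbols fall outside the rule also had a median below 0. Of a list of 44 symbols for such genes (assembly factors, cytochrome c and cytochrome c1) 43 were matched, with a median log2 ratio of -0.25. The symbol without a match was COA8, listed beside APOPT1, which was matched. Of these 4 were at least 2-fold higher, against 24.1% of all genes, and 6 lower, against 12.2%, the latter share near that of all genes. After removal of the GC trend their median stood at -0.52, none was higher (8.45% of all genes) and 6 were lower (8.92%). HIGD2A, a supercomplex assembly factor, was at 140 FPKM with the control shRNA and 53.2 FPKM with the USP22 shRNA, and SCO2, a copper chaperone of complex IV, at 30.01 and 11.1 FPKM. LYRM7, a chaperone of the Rieske protein, was at 0.555 and 3.11 FPKM, and NUBPL, which delivers iron-sulfur clusters to complex I, at 3.44 and 10.2 FPKM. The electron carrier genes lay inside 2-fold, with CYCS at 30.2 and 43.8 FPKM and CYC1 at 97.4 and 59.4 FPKM. The ATP synthase genes listed under older symbols, USMG5, C14orf2 and the inhibitor ATPIF1, were at 112.1 and 128 FPKM, 15.9 and 13.9 FPKM, and 46.9 and 27.3 FPKM.

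Genes that replicate, transcribe and process mitochondrial DNA and RNA were at least 2-fold higher about as often as all genes. Of 27 kept, 7 were higher, against 24.1% of all genes, and 1 was lower, against 12.2%, at a median log2 ratio of 0.30. With the GC trend removed none was higher (8.45% of all genes) and 4 were lower (8.92%), at a median of -0.07. TFAM, which packages mitochondrial DNA and starts its transcription, was at 2.39 FPKM with the control shRNA and 12.5 FPKM with the USP22 shRNA. LRPPRC, which stabilises mitochondrial messenger RNA, was at 3.01 and 11.9 FPKM. The helicase TWNK, at 13.5 and 5.67 FPKM, and HSD17B10, a subunit of mitochondrial RNase P, at 133 and 91.2 FPKM, had the lowest ratios. TFAM and LRPPRC have transcripts of 38.4% and 42.4% GC, and their log2 ratios of 1.998 and 1.69 became 0.70 and 0.71 with the GC trend removed.

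Among 7 kept regulators of nuclear chain genes, GABPA, an ETS-family activator, was at 0.575 FPKM with the control shRNA and 5.35 FPKM with the USP22 shRNA. With the pseudocount of 1 it was the 1 regulator of 7 at least 2-fold higher, against 24.1% of all genes, and it was at 0.66 on the log2 scale with the GC trend removed. GABPB1, its partner subunit, was at 1.35 and 3.52 FPKM, or 0.94 on the log2 scale with that pseudocount. GABPA shares exon bases on the opposite strand with the chain gene ATP5J, so both values are uncertain. NRF1, an activator of many chain promoters, was at 8.29 and 5.90 FPKM, and the coactivator PPRC1, at 14.2 and 7.94 FPKM, had the lowest ratio.

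Promoter windows of 250 bases before to 50 after the start (RefSeq, GRCh38.p14) matched 80 of the 98 nuclear members. Both strands were searched for 4 motifs by their letters. The ETS core CCGGAAG was in the windows of 26 of the 80 (32.5%), against 12.2% of 27305 genes and 10.3% of 35116 windows. The palindromic NRF1 core was in 7 (8.75%), against 1.52% of genes and 1.24% of windows, the YY1 core AAGATGGC in 14 (17.5%), against 3.52% and 2.89%, and TCTCGCGA in 5 (6.25%), against 1.37% and 1.15%. The comparison shares cover all genes with a window, whether or not they were listed in these libraries. Shares over expressed genes alone were not computed, so these differences are not particular to the chain on this evidence. The median log2 ratio was -0.41 for members with the ETS core and -0.36 for those without, and -0.47 and -0.36 with and without the YY1 core. It was -0.20 with the NRF1 core and -0.43 without, and -0.02 with TCTCGCGA and -0.38 without. Median transcript GC content was 41.7% with and 48.1% without the NRF1 core, and 43.6% with and 47.6% without TCTCGCGA. It was 49.8% with and 47.4% without the ETS core, and 52.1% with and 47.4% without the YY1 core. The upstream 250 bases are shown for the nuclear member at least 2-fold higher (ATP5F1, chr1:111449214-111449463, plus strand), for the subunit with the lowest ratio (NDUFB1, chr14:92121707-92121956, minus strand) and for the nuclear member highest in the control (COX8A, chr11:63974370-63974619, plus strand), with the letters of any of the 4 motifs in capitals.
ATP5F1: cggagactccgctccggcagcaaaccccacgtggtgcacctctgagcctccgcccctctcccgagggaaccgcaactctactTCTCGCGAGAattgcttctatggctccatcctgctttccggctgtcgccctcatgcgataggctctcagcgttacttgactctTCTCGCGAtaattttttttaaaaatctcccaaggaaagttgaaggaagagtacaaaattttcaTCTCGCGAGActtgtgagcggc
NDUFB1: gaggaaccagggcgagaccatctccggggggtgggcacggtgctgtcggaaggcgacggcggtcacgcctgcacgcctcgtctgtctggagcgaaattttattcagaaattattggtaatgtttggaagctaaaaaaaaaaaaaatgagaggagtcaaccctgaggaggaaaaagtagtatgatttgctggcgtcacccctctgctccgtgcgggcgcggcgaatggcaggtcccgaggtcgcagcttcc
COX8A: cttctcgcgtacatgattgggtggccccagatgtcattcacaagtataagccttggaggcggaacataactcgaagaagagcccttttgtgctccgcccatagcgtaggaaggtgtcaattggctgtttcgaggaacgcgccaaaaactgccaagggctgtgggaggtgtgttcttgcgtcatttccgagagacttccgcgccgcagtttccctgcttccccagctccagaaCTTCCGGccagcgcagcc

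The ATP5F1 window held TCTCGCGA, read on either strand, at 3 places with 5 matches in all. At 2 of the places it overlaps its own reverse complement in the run TCTCGCGAGA. The COX8A window held the ETS core on the reverse strand shortly before the start. The upstream NDUFB1 window held none of the letters searched. The YY1 core counted for ATP5F1 lies after the start, outside the bases shown. These are matches of letters and no binding was measured.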

How the data were processed

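Huh7 RNA was sequenced as 1 control shRNA and 1 USP22 shRNA library, grouped by the labels. Per the labels' protocols, total RNA was extracted with TRIZOL, treated with DNase and made into libraries with an mRNA-seq kit. Tools named in the submitters' processing notes are StringTie 1.3.0 and HISAT2 2.0.4, with the build GRCh37; the role of each, the annotation and the choice of the 11976 genes are not given in the sources used here. The deposited values carry no unit and were read as FPKM, an assumption: they are not whole numbers. Low values times transcript length were searched for steps of whole reads. The best strength over 4000 steps was 0.0815 for the control and 0.148 for the other library, against 1 for whole reads, so none were recovered and depth is unknown. No count model was used.

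Log2 ratios used a pseudocount of 1, which understates ratios of low genes, and genes whose mean reached 1 FPKM. A gene was called at 2-fold. GC content came from the longest protein-coding transcript in GENCODE 29, a GRCh38 annotation matched by Ensembl identifier, and its trend was removed by lowess with a 30% span (statsmodels 0.14.6). Named genes were every member past 2-fold, all mitochondrial protein genes, complex II, isoforms of 1 subunit, and the ends of each complex and list. Marker lists are given as sums, with some members named after their values were seen. Other genes named, such as NDUFV1, NDUFS5, UQCRFS1, COX10, COX15, NDUFA4, ATP5A1, ATP5B, CYCS and CYC1, and the 4 motifs were chosen after their values were seen. The members, lists and rules were chosen with earlier results of these data known. Alternatives were other pseudocounts, filters, scalings and a 1.5-fold rule, removal of GC and length trends, and protein-coding genes only.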

Additional observations from a re-analysis of the deposited data

How the results depend on the processing

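The medians of nuclear chain genes, of mitochondrial protein genes and of all 5 complexes stayed below 0 under every alternative run. No member past 2-fold with uncorrected values and a pseudocount of 1 changed sign. Other genes did with the GC trend removed. NDUFV2 and NDUFS1, past 1.5-fold at 0.95 and 0.83, went to -0.14 and -0.18. Outside the symbol rule, TMEM126B went from 1.10 to -0.29 and TRMT10C from 1.20 to -0.07. As reported, 1 nuclear gene was at least 2-fold higher and 10 lower, and the medians were -0.38 for mitochondrial protein genes, -0.53 for complex II, -0.37 for complex III, -0.53 for complex IV and -0.19 for complex V, mitochondrial subunits included. The higher and lower counts were 3 and 12 with a pseudocount of 0.1, 0 and 2 with 5, 0 and 15 with median centring, 0 and 20 with TMM scaling, 2 and 3 when rescaled without mitochondrial genes, 8 and 36 at 1.5-fold (all genes 35.6% and 24.2%), 0 and 19 with the GC trend removed, and 0 and 18 with GC and length trends removed. Rescaling without mitochondrial genes moved the median of all genes from 0.10 to 0.22 and TMM moved it to -0.05, while the nuclear chain median lay 0.43 and 0.47 below it. Of all genes past 2-fold, 66.3% were higher as reported, 59.8% with median centring, 56.5% with TMM, 73.1% when rescaled and 48.6% with the GC trend removed. Removal of the GC trend gave medians of -0.86 for mitochondrial genes, -1.04 for complex II, -0.73 for complex III and -0.88 for complex IV. For complexes I and V that removal gave -0.53 and -0.31. Removal of GC and length trends gave -0.67, -0.91 and -0.65 for mitochondrial genes and complexes II and III. It gave -0.38, -0.68 and -0.06 for complexes I, IV and V. Complex V thus lay close to 0 there, as it did when rescaled without mitochondrial genes (-0.05). Alternatives chosen after the data were seen used the median GC over coding transcripts, with 0 higher and 18 lower and medians of -1.03 for mitochondrial genes, -0.89, -0.73, -0.77 and -0.53 for complexes II to V, and MT-ATP6 at 0.92, under 2-fold. Without the 56 nuclear members that share exon bases with another gene, 0 were higher and 5 lower, and complex V was at -0.40. The mitochondrial median was -0.40 without MT-ATP6. The causes of these shifts were not tested beyond what each alternative changes by construction. With depth unknown, counting error is unknown, and with 1 library per group no difference has a replicate check. No paired analysis was possible because each group has 1 library.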

Other observations

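SCO2 was listed on 2 rows with different identifiers, at 30.01 FPKM with the control shRNA and 11.1 FPKM with the USP22 shRNA on one row (ENSG00000130489.14_3), and at 0.877 and 12.6 FPKM on the other (ENSG00000284194.1_1). The row with the higher mean was used above, and the sign of the SCO2 difference depends on the row.

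The readthrough and copy genes were low. ATP5J2-PTCD1 was at 2.27 and 1.22 FPKM, beside ATP5J2 at 94.4 and 57.0 FPKM, and NDUFC2-KCTD14 at 0.443 and 0.766 FPKM, beside NDUFC2 at 56.1 and 69.7 FPKM. UQCRHL, a retrocopy of UQCRH, was at 1.63 and 1.41 FPKM, and the pseudogene ATP5EP2 at 0.842 and 0.172 FPKM. How reads were divided within these pairs was not tested. Pseudogenes named after the parent gene are annotated for 49 of the 98 nuclear members, and their share of the reads was not tested.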
